A study of Homo sapiens with 24 samples.

Results

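The genes described are 43 interferon-stimulated and antigen processing genes, chosen as a list of symbols with earlier results of these data known. Their share of calls beside that of all genes is therefore descriptive. They were read on arrays of the cell line SW1222, which was derived from a human colorectal cancer. Of the 43, 42 had a probe set with a single gene symbol in the values, out of 17448 genes tested. STAT2 was not analysed here. For a gene with several probe sets the brightest over the 24 arrays was taken. By role they comprise 5 genes of the ISG15 system, 12 RNA sensors and RNA-binding effectors, 9 antiviral GTPases and membrane effectors, 10 other interferon-induced genes, 3 signal transducers and 3 antigen processing genes.

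The study changed DPPA3, an early germ cell gene, in both directions in these cells. DPPA3-OE cells, which carry a doxycycline-inducible DPPA3, and control-OE cells were grown as Matrigel-embedded megacolonies (3D) with 5 µg/ml doxycycline over the final 5 days, on 3 arrays each. The same lines were grown in 2D with 5 µg/ml doxycycline for 4 hours, on 3 arrays each, so the 3D and 2D groups differ in culture and in time of drug together. DPPA3 shRNA and control shRNA cells had 3 arrays each. DPPA3 KO clone C75, DPPA3 KO clone C66 and control KO cells, which carry a scrambled gRNA, had 2 arrays each. These 5 groups were grown in 3D without doxycycline, and all 9 groups at 21% oxygen. Each knockout line is 1 clone. No arrays of the DPPA3-OE line without doxycycline were analysed here, so a response to DPPA3 and a standing difference between the 2 lines cannot be told apart. Whether replicate arrays came from separate cultures is not stated in the labels, so a p-value here sets a difference against array-to-array spread, which may be technical.

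Interferons are secreted proteins that bind receptors on the cell surface and, through Janus kinases, activate STAT transcription factors. A complex that includes IRF9 binds the interferon-stimulated response element (ISRE), and a second DNA element of the pathway is the gamma-activated sequence (GAS). The genes switched on include sensors of foreign RNA, proteins that block viral replication, the ubiquitin-like modifier ISG15, and the immunoproteasome and peptide transporter that supply peptides to MHC class I molecules. In tumour cells the same genes can also be switched on by the cell's own nucleic acids, which the RNA and DNA sensors detect.

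The promoter sequences show what many of these genes share outside the values. The promoter windows come from RefSeq (GRCh38.p14) and span 250 bases before to 50 bases after a gene's start, so 300 bases in all. Both strands were searched for the ISRE core, which is GAAA, any 2 bases and GAAA again, and for GAS, which is TTC, any 3 bases and GAA. An entry was matched for 34 of the 42 genes, with 47 promoters. The ISRE core lay in a promoter of 24 of the 34 (70.6%), whereas 3.57% of all 35116 promoters and 4.38% of all 27305 genes held it. GAS lay in a promoter of 13 of the 34 (38.2%), against 7.66% of all promoters and 9.38% of all genes. A match is a run of letters, not a measured binding site. The ISRE windows of 60 bases below are shown for 3 genes whose signal rose with DPPA3-OE in 3D, 3 that differed in another comparison, and 3 classical interferon targets that passed in none. Each is printed 5′ to 3′ on the gene's strand, with the ISRE core or its reverse complement in capitals. Adjoining matches overlap.
TAP1, chr6:32853804-32853863, minus strand: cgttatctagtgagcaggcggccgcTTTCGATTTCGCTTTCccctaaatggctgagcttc
PSMB8, chr6:32844042-32844101, minus strand: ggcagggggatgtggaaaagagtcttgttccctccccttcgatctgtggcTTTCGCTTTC
ISG15, chr1:1013359-1013418, plus strand: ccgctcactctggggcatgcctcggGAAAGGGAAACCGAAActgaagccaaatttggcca
IFI27, chr14:94110603-94110662, plus strand: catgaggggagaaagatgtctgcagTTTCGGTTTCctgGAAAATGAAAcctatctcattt
OAS3, chr12:112938306-112938365, plus strand: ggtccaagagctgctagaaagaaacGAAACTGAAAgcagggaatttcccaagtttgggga
PARP14, chr3:122680785-122680844, plus strand: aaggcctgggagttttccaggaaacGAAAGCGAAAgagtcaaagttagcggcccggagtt
IFIT1, chr10:89392482-89392541, plus strand: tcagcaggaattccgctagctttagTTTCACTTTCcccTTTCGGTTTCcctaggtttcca
MX1, chr21:41431829-41431888, plus strand: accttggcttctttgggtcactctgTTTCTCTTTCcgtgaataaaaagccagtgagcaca
BST2, chr19:17405726-17405785, minus strand: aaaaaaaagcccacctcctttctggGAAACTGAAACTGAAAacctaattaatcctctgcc
Of the 12 genes that passed the test in any comparison described further on, 11 had a promoter entry and 9 held the core, and of the 30 that passed in none, 23 had an entry and 15 held it. Of the 5 that passed with DPPA3-OE in 3D, 4 had an entry and 3 held the core. HERC6, which passed there, held neither the core nor GAS, and IFIT2 had no entry. OAS1, which passed in other comparisons, held GAS but not the core.

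Replicate arrays correlated at r = 0.987 to 0.994 across genes, over 21 pairs, and no array stood apart by this measure. DPPA3 read 3.77, 4.54 and 4.74 log2 on the DPPA3-OE 3D arrays and 2.55 to 3.47 on the 18 arrays without the transgene, and its log2 fold change was -0.04 with the shRNA, 0.19 in C75 and -0.16 in C66, none of which passed. All 10 epithelial markers were bright, with means of 6.16 to 11.1. Single markers did set control-OE 3D replicate 3 apart from its group. It was lower in LGALS4 (10.42 against 11.285 and 11.35) and CDH1 (9.02 against 9.57 and 9.52), and higher in EPCAM (9.66 against 9.48 and 9.46). The 7 leukocyte markers measured had means of 2.14 to 5.00, the 5 fibroblast markers 2.16 to 4.24 and the 2 endothelial markers 2.81 and 2.85. The sum of their log2 signals spanned 19.2 to 20.7 over the group means for leukocytes and 14.9 to 15.5 for fibroblasts. Such a sum of log2 values of mostly dim markers does not measure how many such cells were present. CD68, a macrophage marker of the leukocyte list, differed between the knockout clones, and the other leukocyte markers are given beside it with those results. Dim signals cannot be told from no RNA, since the values hold no detection call. These are whole-culture RNA values, in which fewer cells of a type and less RNA per cell cannot be told apart.

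Most of the 42 genes gave a dim signal. The signal of 30 lay below the median over all genes (4.09 log2) and that of 12 above it, with OAS1 and LGALS3BP the brightest. Among the 30 were HERC6 (mean 3.10), PSMB8 (2.90) and IFIT2 (2.59), whose values in 3D induction follow. Signals of different probe sets do not rank RNA amounts, and a change can be understated in a dim signal. Only 10 of the 42 ranged over at least 1 log2 unit across the 24 arrays, and the SD within a group had a median of 0.11 log2. The highest group mean was in DPPA3-OE 3D for 15 genes and in DPPA3-OE 2D for 11, while these groups held the highest mean of 9.18% and 17.4% of all genes tested. DPPA3 shRNA held the highest mean of 0 of the 42 genes, against 7.93% of all genes.

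**Figure D1:**
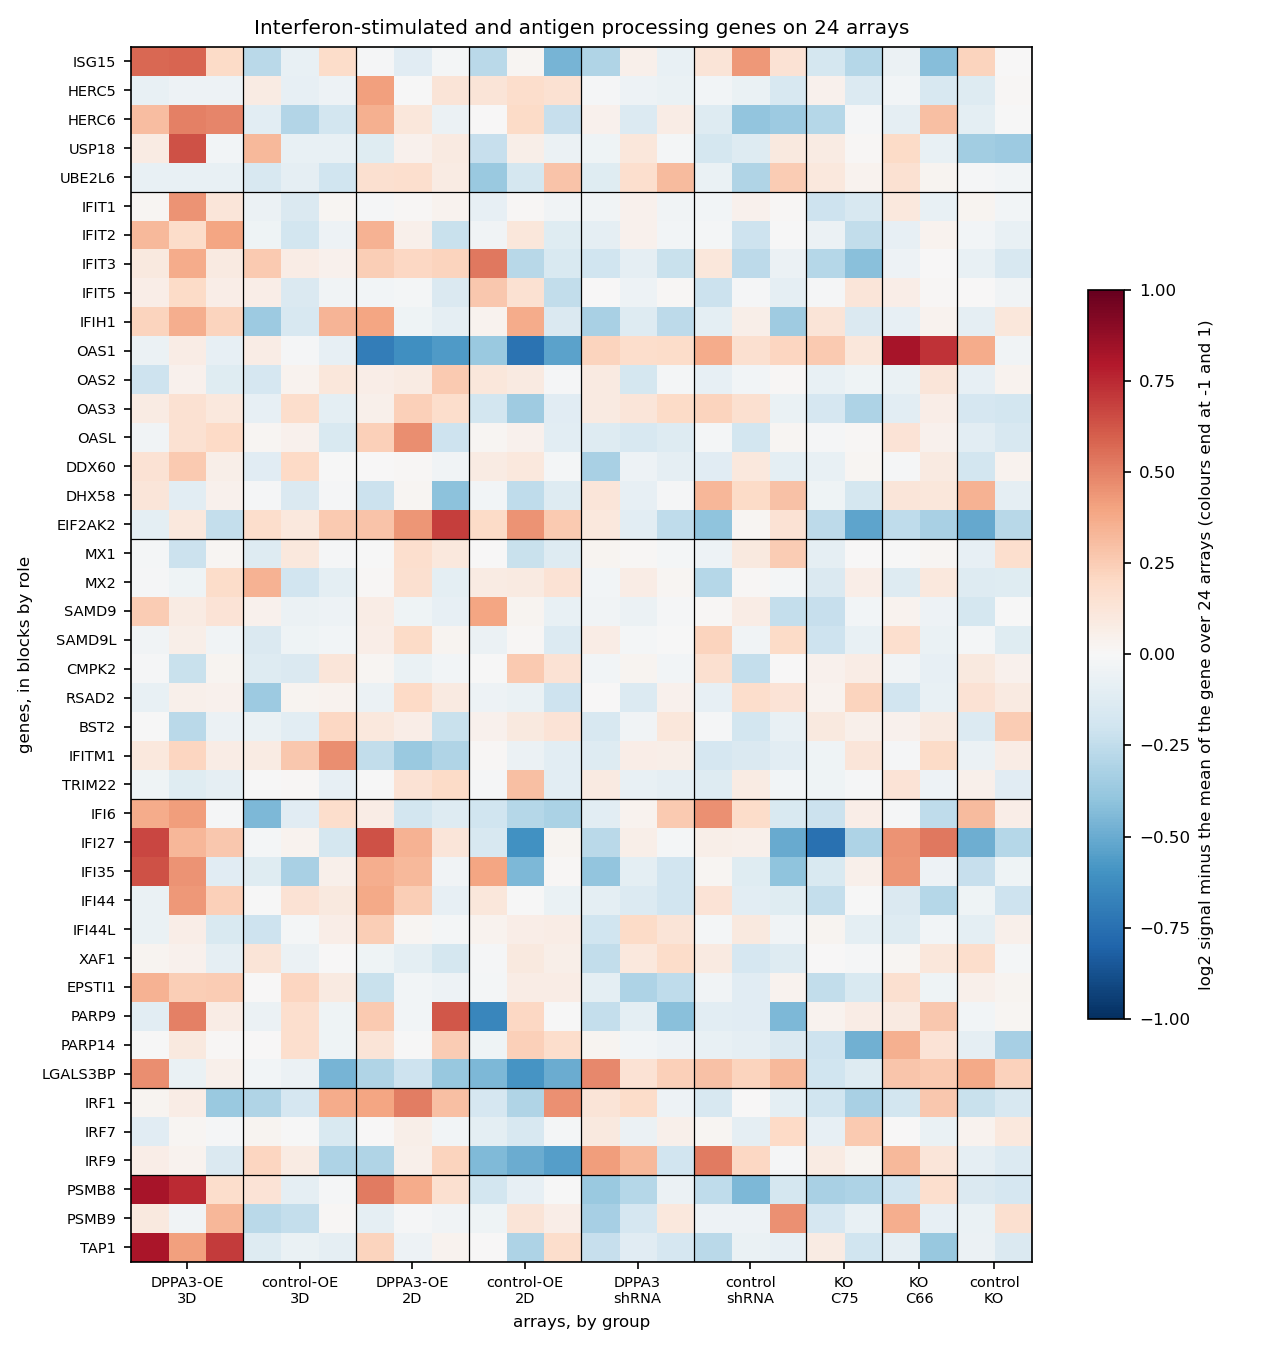
Log2 signal of the 42 genes (rows, in blocks by role) on the 24 arrays (columns, by group), as the difference from each gene's mean over the arrays. TAP1, PSMB8 and ISG15 are highest in DPPA3-OE 3D, OAS1 is low in both 2D groups and high in KO C66, and MX1, MX2 and SAMD9 vary by less than 1 log2 unit.

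DPPA3-OE megacolonies were compared with control-OE megacolonies to see how these genes read after 5 days of induction. The peptide transporter gene TAP1, the immunoproteasome gene PSMB8, the ISG15 modifier, the ligase family gene HERC6 and the RNA-binding effector IFIT2 were higher in DPPA3-OE, by 1.31-fold to 1.67-fold. With limma and Benjamini-Hochberg adjustment over all 17448 genes, 5 of 42 (11.9%) passed as higher at an adjusted p under 0.05 and 0 as lower, whereas 5.7% of all genes did in either direction and 2.93% in the upward one. The median log2 fold change of the 42 was 0.11, with 29 above 0, against a median of -0.01 and 47.4% above 0 over all genes. At an unadjusted p under 0.05 there were 12 of 42, beside 16% of all genes. The 3 DPPA3-OE arrays lay wholly above the 3 control-OE arrays for 9 of the 42 (8.71% of all genes) and wholly below for 0 (9.57% of all genes).

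Antigen processing held the largest change. TAP1 encodes a subunit of the transporter that carries cytosolic peptides into the endoplasmic reticulum. TAP1 read 5.62, 5.21 and 5.50 on the DPPA3-OE arrays and 4.67, 4.73 and 4.71 on the control-OE arrays. Every DPPA3-OE array was far above every control-OE array, and the control-OE arrays were close together. The log2 fold change was 0.74 (SE 0.12, limma adjusted p = 3.40e-04), a 1.67-fold rise, and TAP1 passed under all 13 alternative settings, with an adjusted p of 1.24e-04 to 0.00893. Its mean of 5.44 ± 0.21 (SD, n = 3) stood above the means of the other 8 groups, which ran from 4.56 to 4.86.

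PSMB8 encodes a catalytic subunit that replaces a constitutive one in the immunoproteasome. It read 3.72, 3.64 and 3.07 in DPPA3-OE and 3.03, 2.81 and 2.89 in control-OE. The groups did not overlap, but the lowest DPPA3-OE array was close to the highest control-OE array. The log2 fold change was 0.57 (SE 0.14, limma adjusted p = 0.0129). The call was lost without DPPA3-OE replicate 1 or 2 or control-OE replicate 2 and in a fit of these 6 arrays alone, with an adjusted p of up to 0.110. PSMB9, the other immunoproteasome gene on the list, read 3.86, 3.73 and 4.10 in DPPA3-OE and 3.49, 3.52 and 3.78 in control-OE, which overlap, and did not pass (0.30 log2, limma adjusted p = 0.305). The order on chromosome 6 in RefSeq (GRCh38.p14) is TAP2, PSMB8, TAP1, PSMB9. Among the 10 tested genes nearest to TAP1, 5 on each side, PSMB8 alone passed, and the median log2 fold change of the 10 was 0.06.

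In the ISG15 system 2 of 5 genes passed (40%), both higher, beside 2.93% of all genes in the upward direction. ISG15 is attached to proteins by a cascade in which UBE2L6 is the conjugating enzyme and HERC5 the main human ligase, with USP18 as the protease that removes it. ISG15 read 5.83, 5.83 and 5.44 in DPPA3-OE and 4.98, 5.18 and 5.44 in control-OE. The third DPPA3-OE array and the third control-OE array were nearly equal, and the groups met there without overlapping. The log2 fold change was 0.50 (SE 0.14, limma adjusted p = 0.0358). The call was lost without DPPA3-OE replicate 1 or 2 or control-OE replicate 1 or 2, and in a fit of these arrays alone, with an adjusted p of up to 0.190.

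HERC6, whose mouse counterpart is the main ISG15 ligase of that species, read 3.41, 3.60 and 3.59 in DPPA3-OE and 3.00, 2.81 and 2.92 in control-OE. The groups stood well apart. The log2 fold change was 0.62 (SE 0.13, limma adjusted p = 0.00275), and HERC6 passed under all 12 alternatives it entered, with an adjusted p of 0.00176 to 0.0199. Its signal is below the median of all genes, so the alternative of genes above the median left it out. HERC5, its neighbour on chromosome 4, had a log2 fold change of -0.05. FAM13A, 1 of the 10 nearest tested genes, also rose, by 1.46 log2. USP18 (0.17) and UBE2L6 (0.08) did not pass.

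Among the 12 RNA sensors and RNA-binding effectors only IFIT2 passed (8.33%), beside 5.7% of all genes in either direction. The IFIT proteins bind viral RNA and block its translation. IFIT2 read 2.92, 2.77 and 2.99 in DPPA3-OE and 2.55, 2.41 and 2.54 in control-OE, without overlap. The log2 fold change was 0.39 (SE 0.12, limma adjusted p = 0.0443). The call was lost without any single array except DPPA3-OE replicate 2, in a fit of these arrays alone and with the replicate block, with an adjusted p of up to 0.182. IFIT1 read 2.49, 2.92 and 2.59 in DPPA3-OE and 2.41, 2.33 and 2.49 in control-OE. The lowest DPPA3-OE array was level with the highest control-OE array, and IFIT1 did not pass (0.26 log2, limma adjusted p = 0.153). The other members of the group ran from -0.26 log2 for EIF2AK2, the RNA-activated kinase PKR, to 0.33 for the sensor IFIH1. OAS1, an oligoadenylate synthetase and the brightest of the 42, read 8.04, 8.18 and 8.02 in DPPA3-OE and 8.18, 8.09 and 8.02 in control-OE, which overlap, and had a log2 fold change of -0.02 with a 95% interval of -0.24 to 0.21.

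The remaining roles gave no call, beside 5.7% of all genes. The 9 antiviral GTPases and membrane effectors had a median log2 fold change of -0.02 and a range of -0.14 to 0.18. MX1, a GTPase that traps viral nucleocapsids, read 2.82, 2.63 and 2.86 in DPPA3-OE and 2.71, 2.94 and 2.83 in control-OE. BST2, which tethers budding virus to the cell, read 2.33, 2.07 and 2.28 in DPPA3-OE and 2.27, 2.24 and 2.54 in control-OE. Both genes overlapped between groups. The 10 other interferon-induced genes had a median of 0.16, led by IFI27 (0.47, limma adjusted p = 0.118), IFI35 (0.46), IFI6 (0.39) and LGALS3BP (0.34). The signal transducers are transcription factors of the pathway. IRF1 read 3.39, 3.43 and 2.99 in DPPA3-OE and 3.06, 3.19 and 3.73 in control-OE. IRF9 read 4.42, 4.39 and 4.21 in DPPA3-OE and 4.57, 4.43 and 4.04 in control-OE. Both overlapped between groups, with log2 fold changes of -0.06 for IRF1, -0.01 for IRF9 and 0.01 for IRF7. The 95% interval lay within 0.5 log2 of 0 for 29 of the 42 genes and within 1 log2 for all 42.

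**Figure D2:**
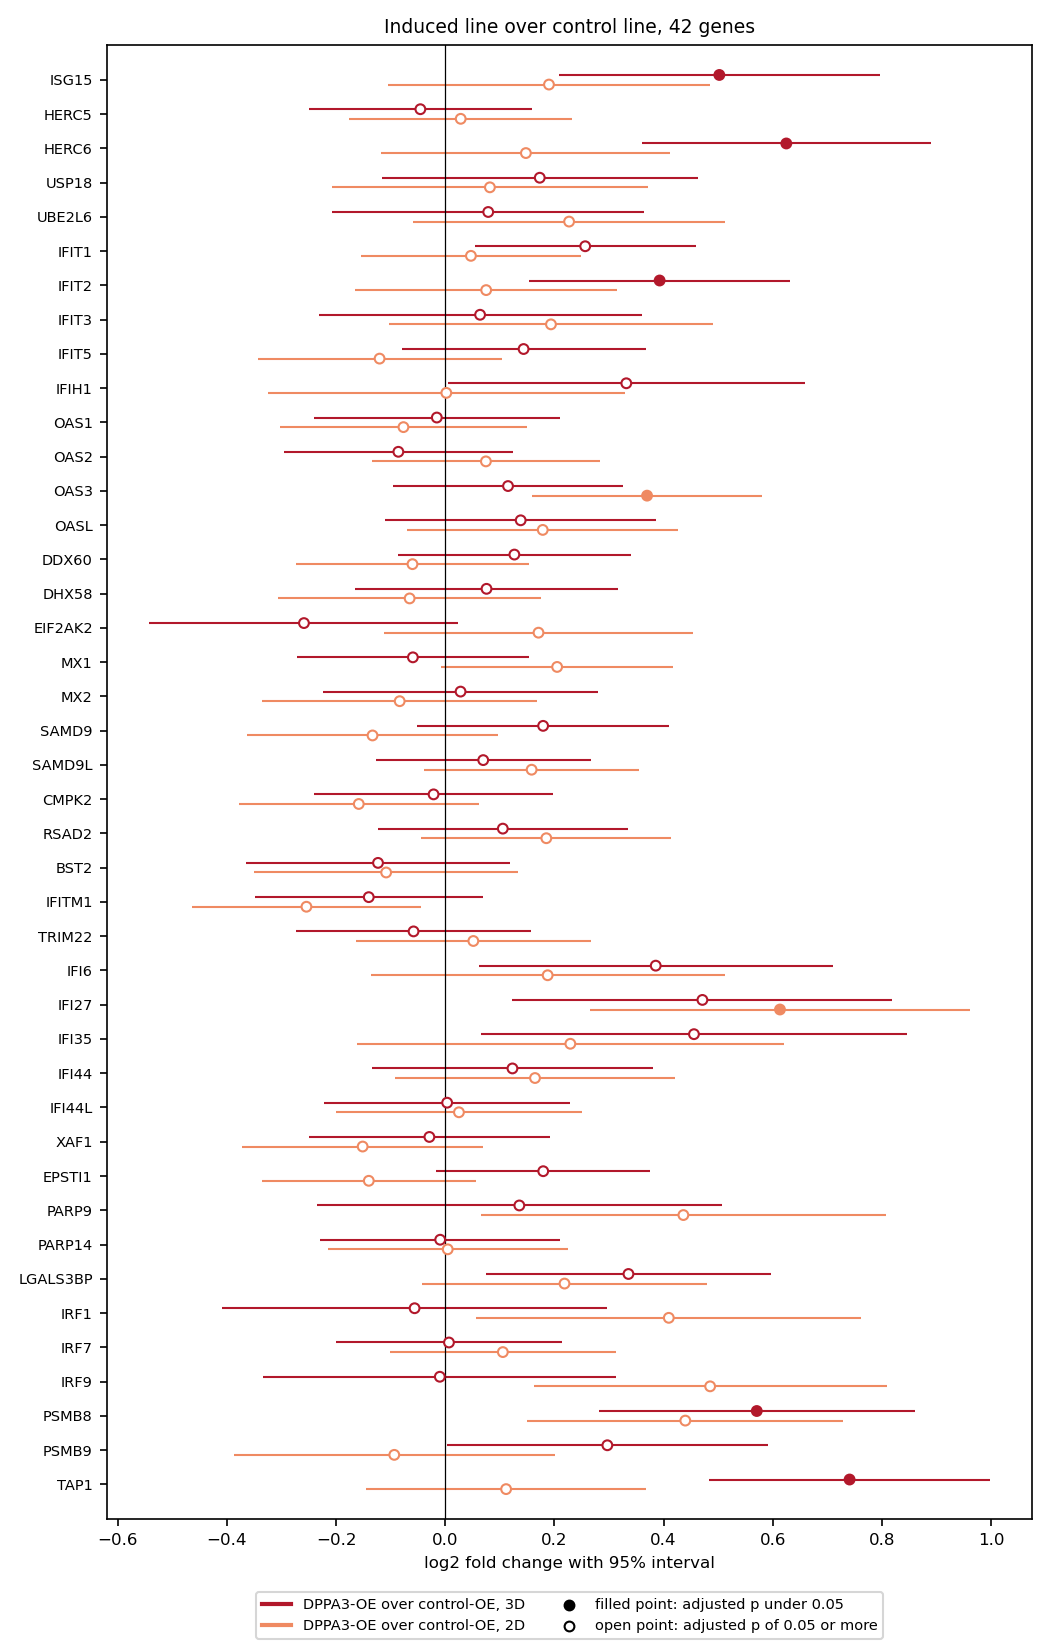
Log2 fold change (x axis) of each of the 42 genes (rows, in order of role) with its 95% interval, for DPPA3-OE over control-OE in 3D (dark red) and in 2D (orange). Filled points passed at an adjusted p under 0.05. These are ISG15, HERC6, IFIT2, PSMB8 and TAP1 in 3D and OAS3 and IFI27 in 2D.

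**Figure D3:**
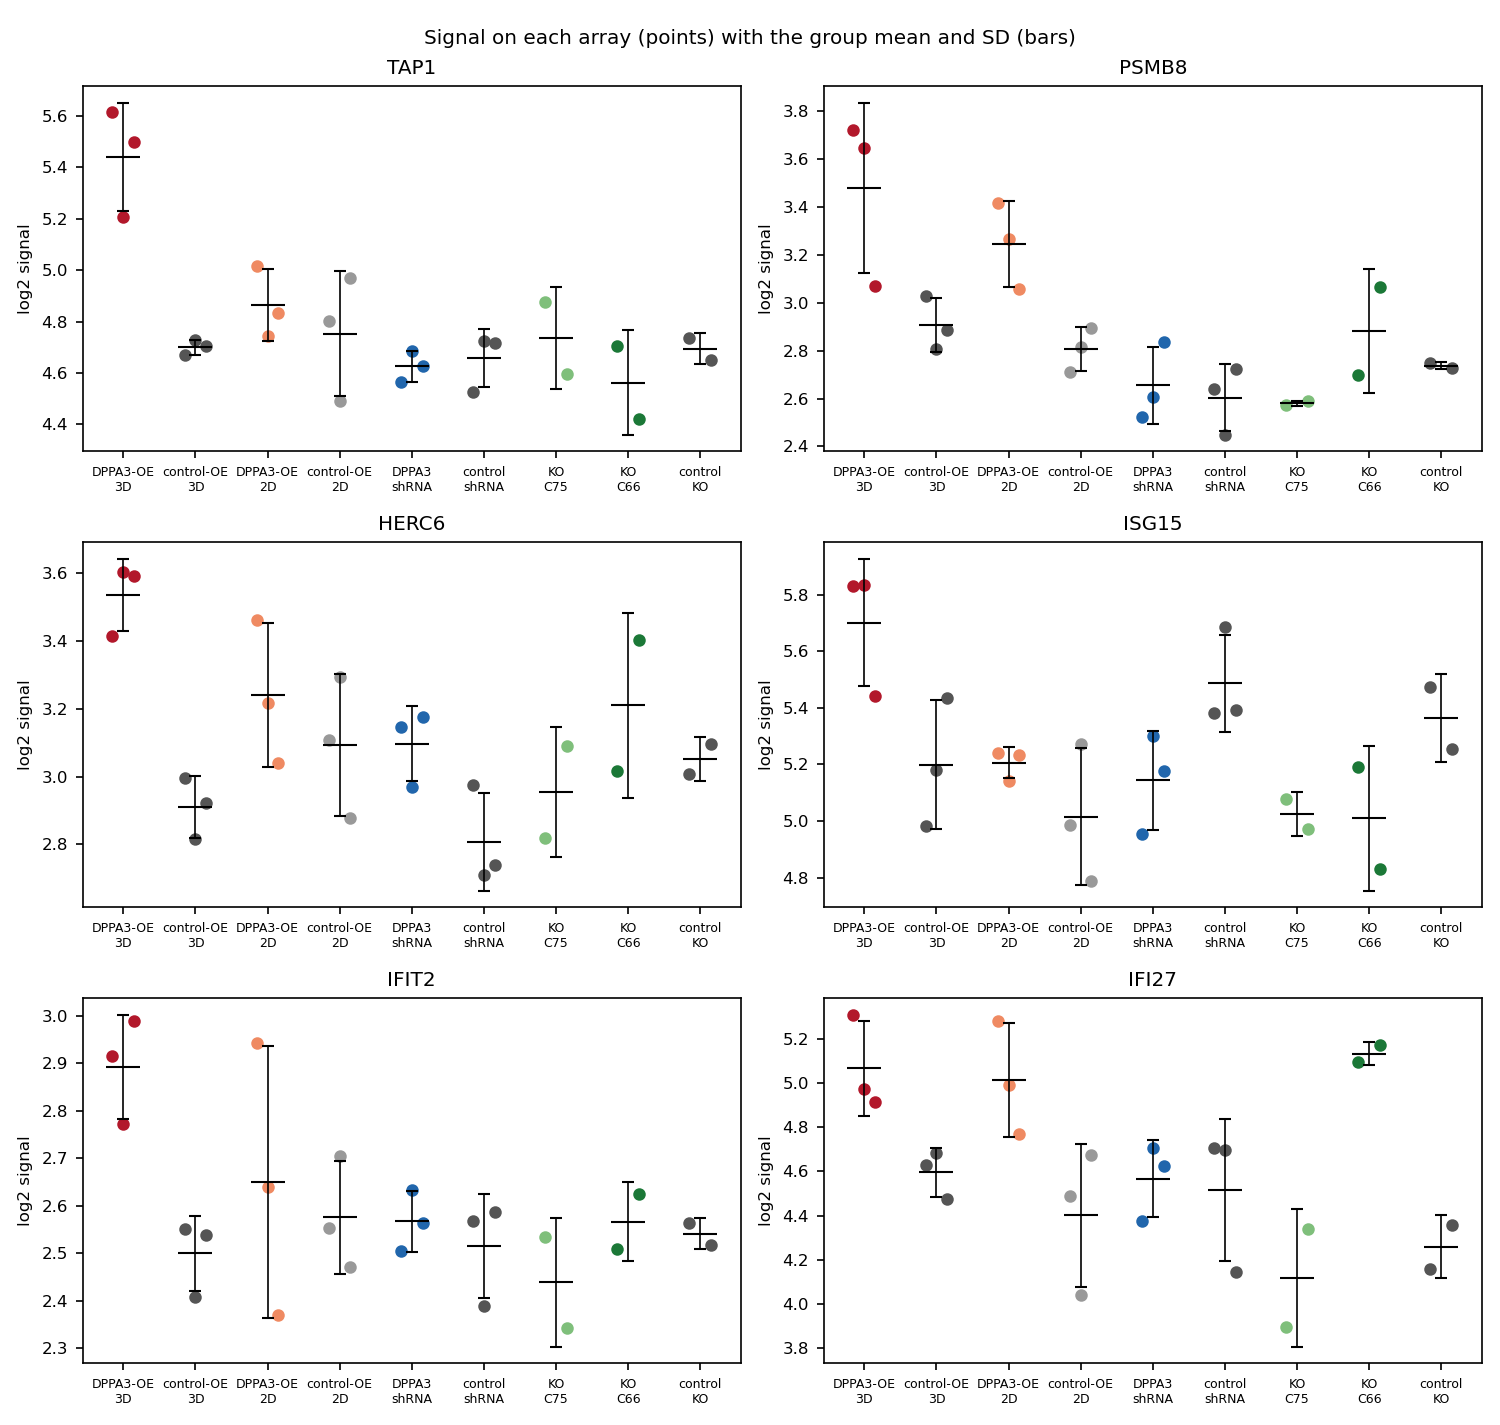
Log2 signal on each array (points) with the group mean and SD (bars), for 6 genes over the 9 groups. TAP1 on the 3 DPPA3-OE 3D arrays (5.21 to 5.62) lies above all 21 other arrays, and IFI27 is high in both DPPA3-OE groups and in KO C66.

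Interferon pathway genes beyond the list were read in the same comparison, with 121 of 151 measured. In DPPA3-OE 3D 8 were higher and 1 lower than in control-OE, 7.44% of the 121 beside 5.7% of all genes. The median log2 fold change was 0.03. Of the 13 interferon genes measured 0 passed in limma (5.7% of all genes), with 1 at an unadjusted p under 0.05 (16% of all genes). Signals of 12 of them were below the median of all genes. Of the 10 receptor and kinase genes 1 passed (10%, beside 5.7% of all genes). This was IL10RB, a receptor chain shared by interferon lambda and interleukin-10, which read 5.96, 6.21 and 6.18 in DPPA3-OE and 5.48, 5.58 and 5.44 in control-OE (0.62 log2, limma adjusted p = 0.00157). IFNAR1, IFNAR2, IFNGR1, IFNGR2 and IFNLR1 did not pass, with values of -0.25 to 0.14 log2.

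Genes of MHC class I presentation gave 4 higher and 0 lower of 15 (26.7%), beside 5.7% of all genes in either direction and 2.93% in the upward one. This list too was chosen with earlier results of these data known, so the shares are descriptive. Of its 22 genes 15 were measured, and no HLA gene was among these. TAPBPL, a peptide editor related to tapasin, read 5.18, 5.08 and 4.95 in DPPA3-OE and 4.36, 4.54 and 4.54 in control-OE, without overlap (0.59 log2, limma adjusted p = 0.00125). Tapasin itself, TAPBP, read 7.61, 6.74 and 7.01 in DPPA3-OE and 6.64, 6.77 and 6.19 in control-OE, which overlap (0.59, adjusted p = 0.0269). The TAPBP call was lost without DPPA3-OE replicate 1 or control-OE replicate 3 (adjusted p up to 0.259). B2M, the light chain of class I molecules, read 8.09, 8.37 and 8.01 in DPPA3-OE and 7.32, 7.53 and 8.03 in control-OE. One control-OE array thus reached the DPPA3-OE range.

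B2M had a log2 fold change of 0.53 (limma adjusted p = 0.0356), lost without DPPA3-OE or control-OE replicates 1 or 2 (up to 0.223). MR1, which presents vitamin metabolites, rose by 0.40 (0.0429) and lost the call without any single array except control-OE replicate 3 (up to 0.205). TAP2 (0.28), the immunoproteasome subunit PSMB10 (0.09), the class I transactivator NLRC5 (0.11) and ERAP2 (0.45), which trims peptides, did not pass. The constitutive proteasome subunits PSMB5, PSMB6 and PSMB7 stood between -0.03 and 0.05 log2.

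**Figure D4:**
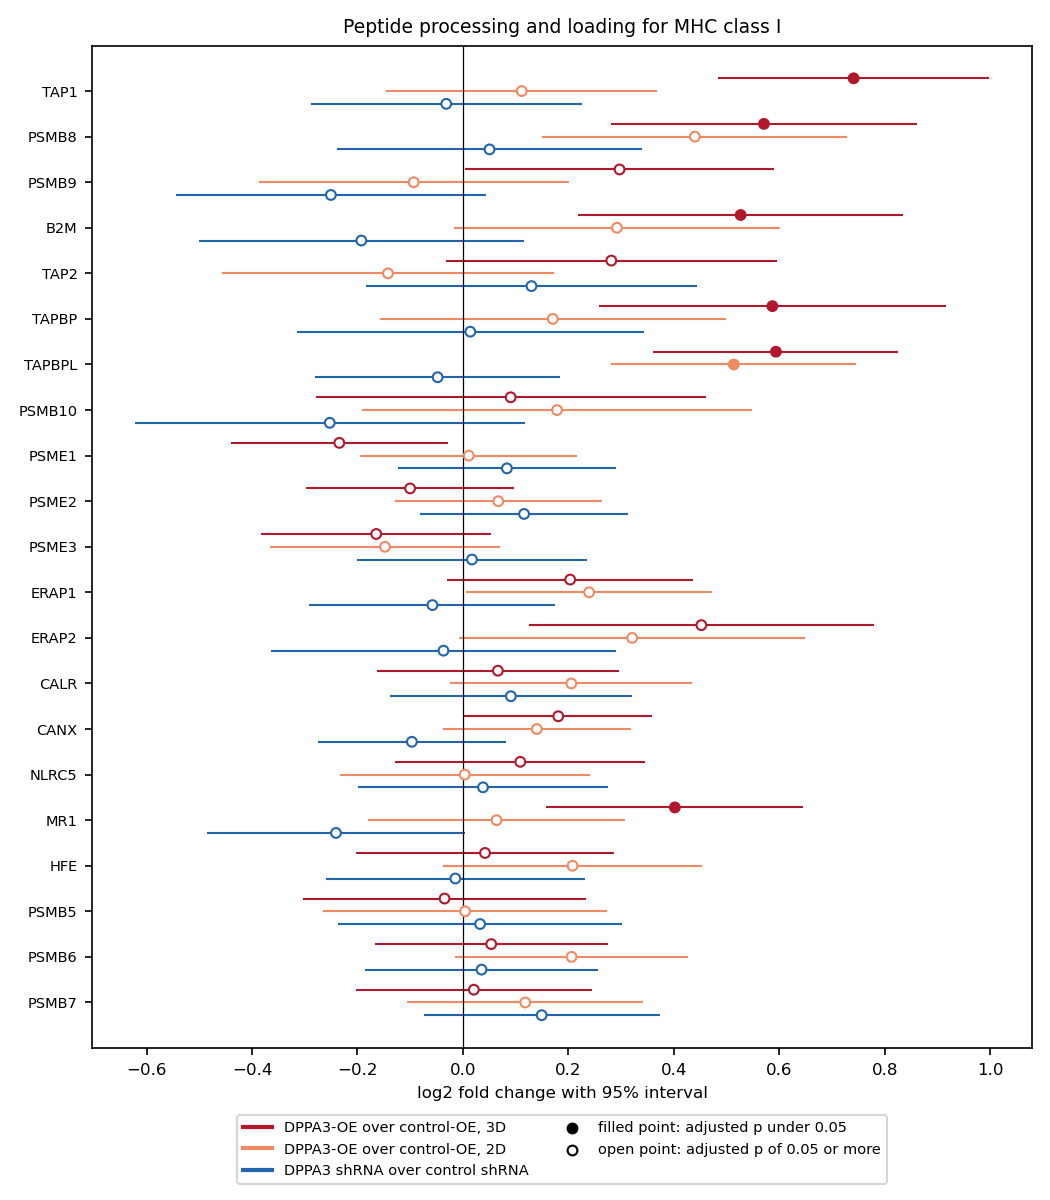
Log2 fold change (x axis) with its 95% interval for TAP1, PSMB8 and PSMB9, 15 other genes of MHC class I presentation and 3 constitutive proteasome subunits (rows). Dark red and orange are DPPA3-OE over control-OE in 3D and 2D, and blue is DPPA3 shRNA over control shRNA. In 3D the filled points are TAP1, PSMB8, B2M, TAPBP, TAPBPL and MR1, in 2D TAPBPL alone, and with the shRNA there is none.

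The other pathway genes that passed in 3D lay outside MHC class I presentation. They include CTSS, from a list of MHC class II presentation of which 2 of 14 genes were measured. CTSS, the lysosomal protease cathepsin S, had the largest rise, with 6.45, 6.73 and 6.41 in DPPA3-OE and 5.58, 5.35 and 5.39 in control-OE (1.09 log2, limma adjusted p = 3.44e-07). APOL6 (0.68, adjusted p = 0.00176) and the exonuclease gene ISG20 (0.43, 0.0403) were higher. ISG20 lost its call without DPPA3-OE or control-OE replicate 1 or 3 (up to 0.173). In a fit of these 6 arrays alone TAPBP, B2M, MR1 and ISG20 also lost their calls. With an intensity trend, and with the replicate block, MR1 and ISG20 did. SAMHD1, which degrades deoxynucleotides, was lower, with 5.03, 5.21 and 5.04 in DPPA3-OE and 5.54, 5.70 and 5.77 in control-OE (-0.58, adjusted p = 8.29e-04).

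The same lines were compared in 2D after 4 hours of doxycycline. IFI27 and OAS3 were higher in DPPA3-OE and none was lower, so 2 of 42 (4.76%) passed, beside 3.13% of all genes in either direction and 1.87% in the upward one. The median log2 fold change was 0.09, with 30 of 42 above 0, against 0.00 and 51.2% over all genes. IFI27, a small membrane protein strongly induced by interferon alpha, read 5.28, 4.99 and 4.77 in DPPA3-OE and 4.49, 4.04 and 4.67 in control-OE. The groups did not overlap and both were wide. The log2 fold change was 0.61 (SE 0.17, limma adjusted p = 0.0437), lost without DPPA3-OE or control-OE replicates 1 or 2 and in 3 other settings (up to 0.234). OAS3, an oligoadenylate synthetase, read 3.82, 4.01 and 3.94 in DPPA3-OE and 3.59, 3.42 and 3.66 in control-OE. Its log2 fold change was 0.37 (SE 0.10, limma adjusted p = 0.0452). The call was lost without any single array except control-OE replicate 3 and in a fit of these arrays alone. An intensity trend, array weights and the replicate block each ended it too (up to 0.183).

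None of the 5 genes that passed in 3D passed in 2D. PSMB8 read 3.42, 3.27 and 3.06 in DPPA3-OE and 2.71, 2.82 and 2.89 in control-OE, which do not overlap, and did not pass (0.44 log2, limma adjusted p = 0.0972). TAP1 read 5.02, 4.74 and 4.83 in DPPA3-OE and 4.80, 4.49 and 4.97 in control-OE, which overlap (0.11). ISG15 (0.19), HERC6 (0.15) and IFIT2 (0.07) did not pass either. IRF9, a part of the ISRE-binding complex, read 4.06, 4.40 and 4.58 in DPPA3-OE and 3.92, 3.86 and 3.81 in control-OE (0.49, adjusted p = 0.103).

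Tested directly, the difference of the 3D and 2D effects passed for 0 of 42 genes in limma, and for 0.241% of all genes. At an unadjusted p under 0.05 there were 5 (8.98% of all genes), and each of the alternatives run, which included every array left out in turn, gave 0. The largest difference in size was in TAP1 (0.63 log2, 95% interval 0.27 to 0.99, adjusted p = 0.173). IRF9 came next, in the other direction (-0.50, -0.95 to -0.04, adjusted p = 0.505), and then HERC6 (0.48, 0.10 to 0.85, adjusted p = 0.391). A smaller effect in 2D was therefore not shown for any of the genes. Among the 121 pathway genes 5 were higher and 0 lower in 2D, or 4.13% beside 3.13% of all genes. TAPBPL (0.51, adjusted p = 0.00752) and CTSS (0.54, 0.00419) had also passed in 3D, and the nuclear body gene SP110 (0.51), the restriction factor TRIM5 (0.57) and NMI (0.56), which binds STAT proteins, had not. The TAPBPL call was lost without DPPA3-OE replicate 1 (0.0681), and those of SP110, TRIM5 and NMI without 4, 4 and 5 of the 6 arrays (up to 0.227, 0.145 and 0.110). SP110 also lost its call in a fit of these arrays alone and with the replicate block, and SP110 and TRIM5 with array weights.

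The shRNA comparison asked whether these genes moved with less DPPA3, although the arrays did not register a fall of DPPA3 RNA. DPPA3 averaged 2.91 in control shRNA and 2.87 with DPPA3 shRNA, dim signals in which a fall could go unseen. None of the 42 passed in limma, beside 0.086% of all genes, and none did in the alternatives run. At an unadjusted p under 0.05 there were 3, beside 5.26% of all genes. The values ran from -0.34 to 0.29 log2 with a median of -0.00, and the 95% interval lay within 0.5 log2 of 0 for 37 of 42. ISG15 had the lowest value, with 4.96, 5.30 and 5.18 on the DPPA3 shRNA arrays and 5.38, 5.68 and 5.39 on the control shRNA arrays. The arrays did not overlap, and the log2 fold change of -0.34 had a 95% interval of -0.64 to -0.05 (limma adjusted p = 0.820). DHX58, an RNA helicase that tunes RNA sensing, read 3.15, 2.95 and 3.02 with DPPA3 shRNA and 3.36, 3.22 and 3.32 with control shRNA (-0.26, adjusted p = 0.871). HERC6 stood at 0.29 (0.871), TAP1 at -0.03 and PSMB8 at 0.05.

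Of the 121 pathway genes 1 passed with the shRNA, or 0.826% beside 0.086% of all genes. CTSS read 5.10, 5.38 and 5.17 with DPPA3 shRNA and 5.89, 5.91 and 5.76 with control shRNA. It was thus lower by a wide margin on every DPPA3 shRNA array (-0.64 log2, limma adjusted p = 0.00956). The call was lost without DPPA3 shRNA replicate 1 or 3 or control shRNA replicate 1 or 2 and in a fit of these arrays alone (up to 0.105). CTSS was thus higher in DPPA3-OE and lower with DPPA3 shRNA than in the control of each. Its mean in the 3 groups of the knockout experiment was 6.27 in C75, 6.25 in C66 and 6.41 in control KO, and neither clone passed.

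The knockout clones were each compared with control KO and then with each other. In C75 none of the 42 passed in limma (0.619% of all genes), 2 had an unadjusted p under 0.05 (8.12% of all genes), and the alternatives run gave none. In C66 the RNA-sensing synthetase OAS1 and IFI27 were higher than in control KO and none was lower, 2 of 42 beside 1.43% of all genes. Set directly against each other, C75 was lower than C66 in 3 of 42 genes and higher in 0. These were IFI27, OAS1 and PARP14, and 2.9% of all genes passed in either direction and 1.98% in the downward one. The median of this difference over the 42 was -0.09 log2, with 30 below 0, against a median of 0.01 and 52.2% above 0 over all genes.

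IFI27 read 3.90 and 4.34 in C75, 5.10 and 5.17 in C66, and 4.16 and 4.36 in control KO. Only C66 stood apart, and C75 and control KO overlapped. The log2 difference of C75 minus C66 was -1.02 (SE 0.21, limma adjusted p = 0.00373), lost without C75 replicate 1 or C66 replicate 2 (up to 0.140). C66 over control KO was 0.88 (adjusted p = 0.0254), lost without any 1 of the 4 arrays (up to 0.266), and C75 over control KO was -0.14. The marker CD68 averaged 4.79 in C75, 5.86 in C66 and 5.15 in control KO, so it was also high in C66. The other leukocyte markers measured were dim and did not stand out in C66. In the same order of groups, CD14 averaged 2.98, 2.67 and 2.60, LYZ 2.67, 2.56 and 2.57, and CD3E 2.67, 2.57 and 2.52. CD2 averaged 2.32, 2.21 and 2.28, PTPRC 2.11, 2.08 and 2.08, and ITGAM 2.67, 2.74 and 2.72. The part of CD68 in the C66 and clone results was not tested.

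OAS1 read 8.37 and 8.22 in C75, 8.93 and 8.82 in C66, and 8.47 and 8.07 in control KO. C66 was again above the rest. C75 minus C66 was -0.58 log2 (SE 0.13, limma adjusted p = 0.0114), lost without C75 replicate 2 or either C66 array (up to 0.176). C66 over control KO was 0.61 (adjusted p = 0.0149), lost without either C66 array, without control KO replicate 2 or in a fit of these 4 arrays alone (up to 0.461).

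PARP14, an ADP-ribosyltransferase, read 4.72 and 4.45 in C75, 5.29 and 5.07 in C66, and 4.84 and 4.60 in control KO. C75 minus C66 was -0.59 log2 (SE 0.13, limma adjusted p = 0.00818), lost without C75 replicate 2, without C66 replicate 1 or in a fit of the 4 clone arrays alone (up to 0.225). C66 over control KO did not pass (0.46, 0.0853), but did with array weights. PARP9, another member of the list, and its partner gene DTX3L were among the 10 nearest tested genes, of which 0 passed.

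Some genes stood on the same side of control KO in both clones, which share these control arrays. ISG15 read 5.08 and 4.97 in C75, 5.19 and 4.83 in C66, and 5.47 and 5.25 in control KO. Both clones lay below the control arrays, at -0.34 log2 in C75 (limma adjusted p = 0.658) and -0.35 in C66 (0.538), and neither passed. USP18 read 3.68 and 3.62 in C75, 3.80 and 3.53 in C66, and 3.25 and 3.24 in control KO, at 0.40 (0.522) and 0.42 (0.385). LGALS3BP, a secreted galectin-binding glycoprotein, read 7.07 and 7.14 in C75, 7.55 and 7.53 in C66, and 7.65 and 7.50 in control KO. C75 alone was low, at -0.47 (adjusted p = 0.249). TAP1 and PSMB8 stood at 0.04 and -0.16 in C75 and at -0.13 and 0.14 in C66.

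Pathway genes outside the list gave 0 calls in C75, 1 of 121 in C66 (0.826%, beside 1.43% of all genes) and 3 of 121 between the clones (2.48%, beside 2.9% of all genes), so neither share was above that of all genes. IFI30, a lysosomal thiol reductase that unfolds antigens, read 6.40 and 6.69 in C75, 5.56 and 5.43 in C66, and 6.47 and 6.27 in control KO. Its C66 value fell by 0.88 log2 relative to control KO (limma adjusted p = 0.00176), lost without control KO replicate 1 (0.0610), and C75 minus C66 was 1.05 (9.79e-05). SAMHD1 was lower in C75 than in C66 (-0.59, 0.00772), lost without C75 replicate 1 or C66 replicate 1 (up to 0.151). TNFSF10, the death ligand TRAIL, was lower too (-0.89, 0.0303), lost without C75 replicate 1 or either C66 array (up to 0.502).

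**Figure D5:**
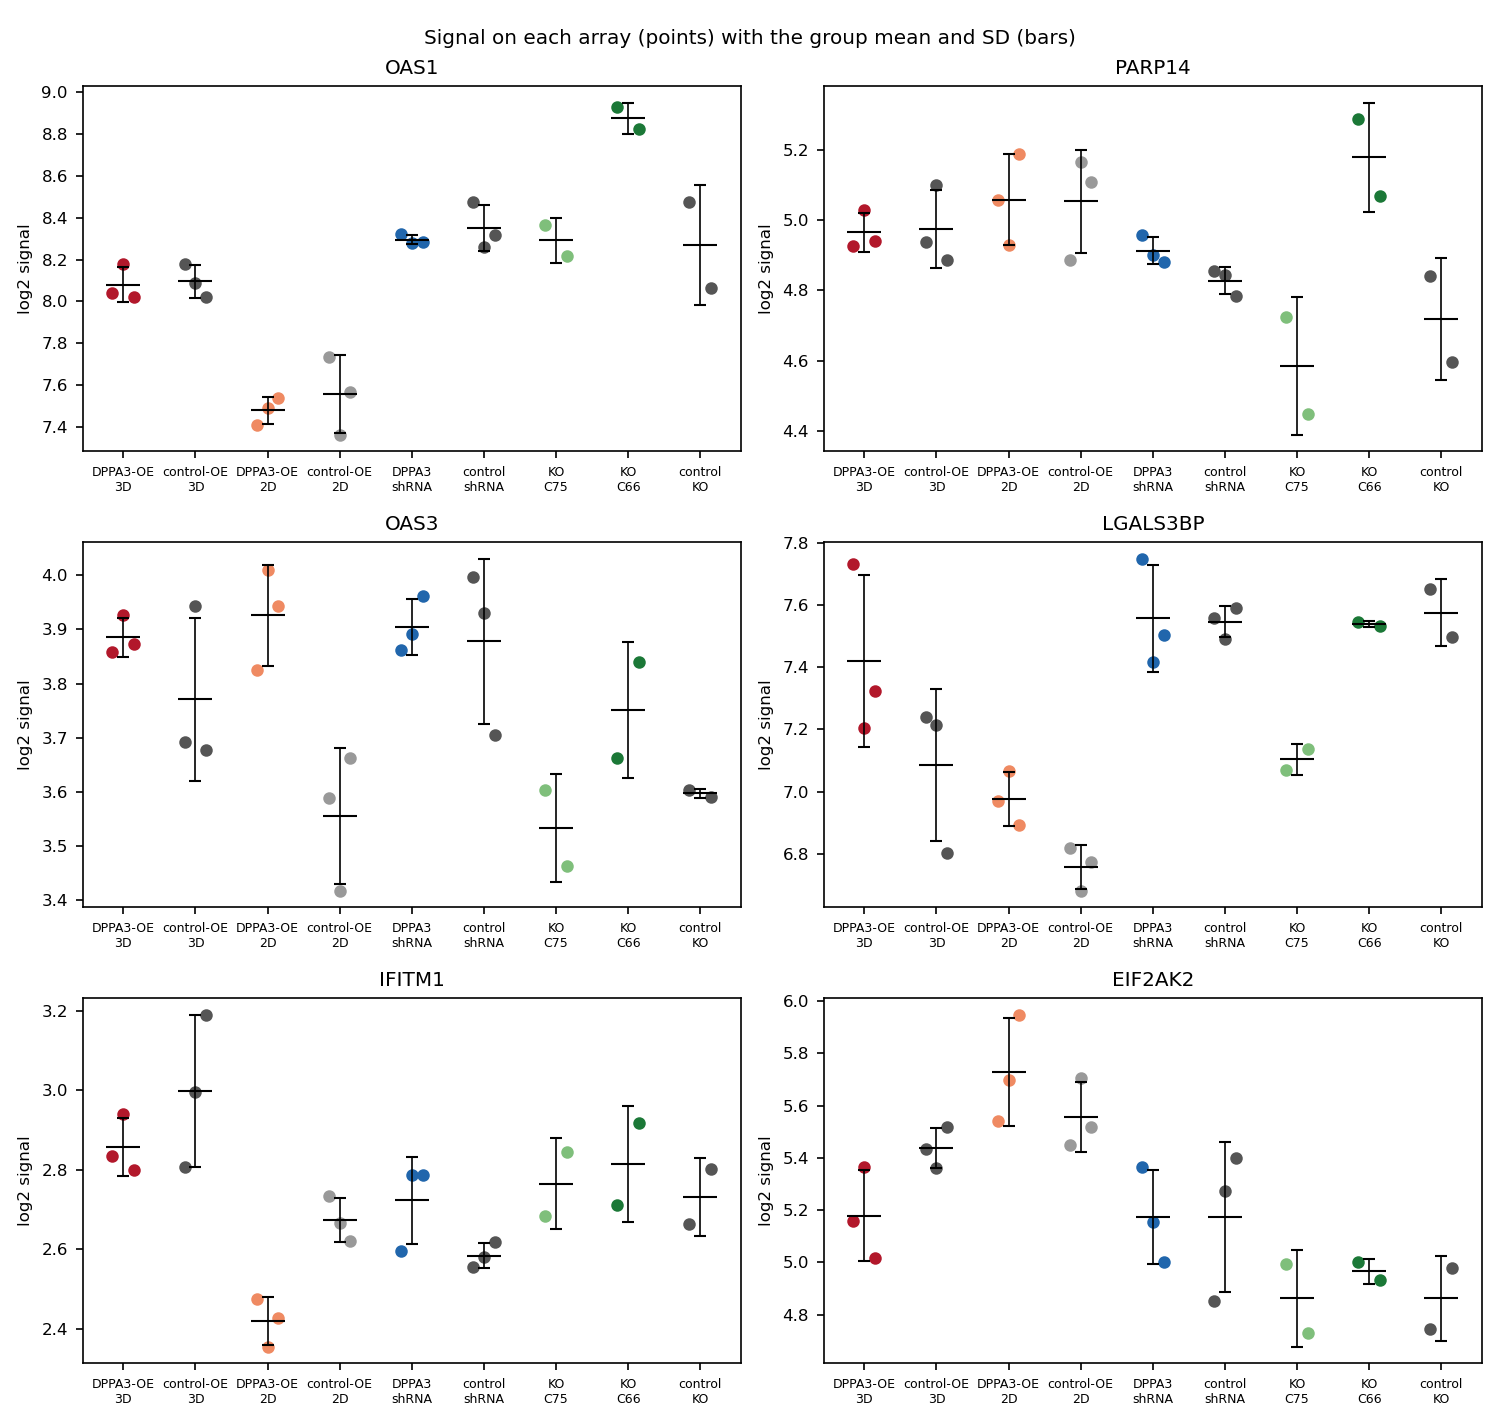
Log2 signal on each array (points) with the group mean and SD (bars), for 6 further genes over the 9 groups. OAS1 is lowest in both 2D groups (means 7.48 and 7.55) and highest in KO C66 (8.88), and EIF2AK2 is higher in the 3D control-OE group (5.44) than in control shRNA (5.18) and control KO (4.86).

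The control groups were compared to see how far the genes vary without induced DPPA3. In control-OE cells, 3D was higher than 2D for 2 of 42 genes and lower for 0, beside 7.8% of all genes. OAS1 read 8.18, 8.09 and 8.02 in 3D and 7.73, 7.36 and 7.57 in 2D, well apart (0.54 log2, limma adjusted p = 0.00268), and passed under all 13 alternatives. IFITM1, which blocks entry of enveloped viruses, read 2.81, 3.00 and 3.19 in 3D and 2.73, 2.67 and 2.62 in 2D (0.32, 0.0494). It lost the call without any single array except 3D replicate 1, in a fit of these arrays alone, with array weights and with the replicate block (up to 0.215). IRF9 did not pass (0.49, adjusted p = 0.0553), but did among genes above the median, with array weights and with the replicate block. Among the 121 pathway genes 9 were higher and 5 lower in 3D, 11.6% beside 7.8% of all genes. The higher ones included SP100 (0.66), TRIM38 (0.64), APOL6 (0.58), TAPBPL (0.47) and CTSS (0.43). PSME3 (-0.60) and PSMB7 (-0.52) were among the lower ones.

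Control-OE 3D cells were also set against the mean of control shRNA and control KO, which were grown in 3D without doxycycline. Experiment, construct and doxycycline differ together here and cannot be told apart. IFITM1 and EIF2AK2 were higher and LGALS3BP lower in control-OE, 3 of 42 beside 11.7% of all genes. LGALS3BP read 7.24, 7.21 and 6.80 in control-OE, 7.56, 7.49 and 7.59 in control shRNA, and 7.65 and 7.50 in control KO (-0.48 log2, limma adjusted p = 0.00568). Its call was lost without control-OE replicate 3 and with the replicate block (up to 0.0864). IFITM1 differed by 0.34 (0.0139), lost without control-OE replicate 3 or control KO replicate 1 (up to 0.121). EIF2AK2 differed by 0.42 (0.0254), with overlapping arrays. Its call was lost without control-OE replicate 1 or 3, control shRNA replicate 1 or control KO replicate 1, and with the replicate block (up to 0.247). Among the 121 pathway genes 13 were higher and 3 lower in control-OE, 13.2% beside 11.7% of all genes. The constitutive proteasome subunits PSMB5, PSMB6 and PSMB7 were all higher (0.40 to 0.56).

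For 3 pathway genes that were higher in DPPA3-OE 3D, the levels of 4 groups were set side by side, and the first contrast and this one share the control-OE arrays. CTSS averaged 6.53 ± 0.17 in DPPA3-OE 3D, 5.44 ± 0.12 in control-OE 3D, 5.85 ± 0.08 in control shRNA (SD, n = 3 each) and 6.41 ± 0.14 in control KO (SD, n = 2). IL10RB averaged 6.12 in DPPA3-OE 3D, 5.50 in control-OE 3D, 6.06 in control shRNA and 6.19 in control KO. TAPBPL averaged 5.07 in DPPA3-OE 3D, 4.48 in control-OE 3D, 5.10 in control shRNA and 4.95 in control KO. Control-OE 3D was the lowest of these 4 groups for each of the 3 genes, and it was below the untreated controls at -0.69 log2 for CTSS (limma adjusted p = 3.25e-05), -0.63 for IL10RB (2.64e-04) and -0.55 for TAPBPL (5.61e-04). SAMHD1, lower in DPPA3-OE 3D, averaged 5.09 in DPPA3-OE 3D, 5.67 in control-OE 3D, 5.00 in control shRNA and 4.76 in control KO, so control-OE 3D was the highest of the 4 groups and stood above the untreated controls by 0.79 log2 (adjusted p = 3.37e-06). For TAP1 the same contrast was 0.02 log2 (adjusted p = 0.938), with means of 4.70 in control-OE 3D, 4.66 in control shRNA and 4.69 in control KO. ISG15 averaged 5.70 in DPPA3-OE 3D, 5.20 in control-OE 3D, 5.49 in control shRNA and 5.36 in control KO. Control-OE 3D was thus the lowest of the 4 groups for ISG15, though this contrast did not pass. For IFIT2 it was the lowest by a narrow margin (2.50, beside 2.51 and 2.54). HERC6 (2.91) lay between control shRNA (2.81) and control KO (3.05), and PSMB8 (2.91) above both.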

How the data were processed

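Per the labels, RNA of 24 SW1222 samples was hybridised to 1-colour Affymetrix Gene 1.0 ST arrays. The deposited values are log2 signals. The submitters' processing notes name RMA and Partek 6.6 as what the authors used. RMA corrects background, sets all arrays to 1 distribution and combines the probes of a probe set, which dampens low signals. The genome build behind the annotation was not given in the sources used here. Array medians were 4.01 to 4.12.

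Of 20276 probe sets 18062 had 1 gene symbol in the platform annotation, 1288 several and 926 none, and the brightest probe set per gene left 17448 genes. TAP1, PSMB8 and PSMB9 each have 3 probe sets with identical values. No low values were removed. limma 3.58.1 in R 4.3.3 fitted 1 mean per group over all 24 arrays, and p-values were adjusted by Benjamini-Hochberg over all genes, with a threshold of 0.05. The number of arrays limits the precision, with a median SE of 0.12 log2 for 3 against 3 arrays. Figures used matplotlib 3.10.9. The fit was tested on simulated data.

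The members and the pathway lists were chosen with earlier results of these data known. Values per array are given for called members (at most 8 per comparison by size), except EIF2AK2 and IFITM1 in control-OE over untreated controls. They are also given for ISG15, IFIT1, IFIT2, MX1, OAS1, HERC6, IRF1, IRF9, TAP1, PSMB8, PSMB9 and BST2 in DPPA3-OE 3D. Pathway genes are named if called, at most 4 per list and comparison by p. In the comparisons of control groups only some of the called ones are named, beside the counts. Others named were chosen after their values were seen. The alternatives were the mean of a gene's probe sets, cyclic loess, the comparison's arrays alone, genes above the median, an intensity trend, array weights, a replicate block and each array left out. The mean of probe sets leaves the values of the listed members unchanged, so for them it is no separate check. Replicate numbers did not pair the arrays. Background correction and slide could not be varied, since the table holds no scan data.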

Additional observations from a re-analysis of the deposited data

Results flagged for a closer look

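C75 was tested directly against C66, with limma and adjustment over all genes. Of the 42 genes 3 passed (7.14%) and of the 121 pathway genes 3 (2.48%), beside 2.9% of all genes. The pathway share was thus not above that of all genes. The log2 difference of C75 minus C66 was -1.02 for IFI27, -0.58 for OAS1, -0.59 for PARP14, -0.59 for SAMHD1, -0.89 for TNFSF10 and 1.05 for IFI30. C75 was thus lower for 5 of the 6 genes and higher for IFI30, while 1.98% of all genes passed as lower and 0.923% as higher. Single arrays carried the calls of IFI27, OAS1, PARP14, SAMHD1 and TNFSF10, as given with the knockout results. Each line is 1 clone with 2 arrays.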

How the results depend on the processing

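Counts are of the 42 genes called. In 3D induction (5) there were 2 among genes above the median and 2 in a fit of the comparison's arrays alone. The signals of HERC6, IFIT2 and PSMB8 in 3D, and of OAS3 in 2D, are below that median, so that setting did not test them. In 2D (2) there was 1 among genes above the median, 1 with cyclic loess, 0 with the comparison's arrays alone, 1 with an intensity trend, 0 with array weights and 1 with the replicate block. C66 over control KO (2) and control-OE 3D over 2D (2) each gave 1 with their own arrays alone, and control-OE over untreated controls (3) gave 1 with the replicate block. Array weights added PARP14 in C66. In control-OE 3D over 2D they added IRF9 and LGALS3BP and ended the call of IFITM1. With the replicate block IRF9 passed there in place of IFITM1. Among genes above the median, which leave out IFITM1, OAS1 and IRF9 passed there. Same-numbered arrays correlated at -0.209 to 0.168, so the numbers do not pair them, and the block gave 4 in 3D. Among the members the block ended the calls of IFIT2 in 3D, OAS3 in 2D, IFITM1 in control-OE 3D over 2D, and EIF2AK2 and LGALS3BP in control-OE over untreated controls. With each array left out in turn, the counts ran from 2 to 5 in 3D, 0 to 3 in 2D, 0 to 0 for 3D minus 2D, the shRNA and C75, 0 to 1 in C66, 1 to 2 for C75 minus C66, 1 to 3 for control-OE 3D over 2D and 0 to 4 for control-OE over untreated controls. Over all genes, the comparison's arrays alone gave 468 calls against 995 in 3D, 314 against 546 in 2D, 7 against 42 for 3D minus 2D and 562 against 1361 for control-OE 3D over 2D, array weights gave 26 against 15 with the shRNA, 546 against 250 in C66 and 256 against 108 in C75, and the block gave 1106 against 2050 for control-OE over untreated controls. The cause was not tested, beyond the smaller number of arrays or genes. Of the 3D values that had not passed, OAS1 changed sign with cyclic loess (0.0058) and IRF1 with array weights (0.0026). Leaving out arrays gave -0.12 to 0.012 for MX1, -0.064 to 0.025 for OAS1, -0.19 to 0.15 for IRF1 and -0.16 to 0.10 for IRF9. Dim signals limit what a small change can show.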
